A study of Mus musculus with 8 samples.

Results

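The genes described here encode integrins, laminins and collagens, the receptors and structural proteins through which epithelial cells hold on to their matrix. A gene was a member if a non-control probe on the array carried a symbol of the form Itga or Itgb followed by a number or a letter, Lama, Lamb or Lamc followed by a digit, or Col with a chain number. This rule found 79 genes among 30139 names on the array, of which 25 encode integrin subunits (17 alpha and 8 beta), 11 laminin chains and 43 collagen chains. They were read by 117 probes, 29 genes had more than one, and each gene is given by its brightest probe unless stated. The rule itself used names only, while the choice of these gene families was made with earlier results of these data known.

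Integrins are receptors of one alpha and one beta subunit that span the plasma membrane and couple the matrix outside to the cytoskeleton inside. Laminins are cross-shaped trimers of one alpha, one beta and one gamma chain that form, with the collagen IV network, the basement membrane under an epithelium. In skin, the integrin of the Itga6 and Itgb4 products and the transmembrane collagen of Col17a1 sit in the hemidesmosome and bind the laminin that holds the Lama3 and Lamb3 chains, and collagen VII fibrils tie that membrane to the dermis.

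Total RNA came from mSCC-20, a mouse cutaneous squamous cell carcinoma line of the FVB/N strain, and was labelled with Cy3 for 8 one-colour Agilent mouse expression arrays. Cells had been transfected with the control microRNA NC (4 arrays), with miR-193b-3p (2 arrays) or with miR-365a-3p (2 arrays). The labels carry an amount in µg without saying of what, 0.2 for NC replicates 1 and 2 and the miR-193b arrays, and 0.6 for the other NC pair and the miR-365a arrays. Each microRNA was compared with the 2 NC arrays of its own amount label, here the 0.2 set and the 0.6 set, and no NC array serves both. Within the 0.6 set the NC arrays are numbered 1 and 2 here. Slide 1 held replicate 1 of NC and of miR-193b, slide 2 the other NC array, slide 3 the other miR-193b array, and slide 4 the whole 0.6 set, so amount label, slide and scan cannot be told apart between the sets. The labels give neither the dose of microRNA nor the time after transfection, and the material is 1 cell line. Whether replicates came from separate cultures is not stated, so the p values cover no more than the spread between arrays, which may be technical, and the small number of arrays limits the precision.

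The transfected microRNAs are shown because their seeds, bases 2 to 8 in capitals, are the part that pairs with messenger RNAs. The sequences are RefSeq's, with positions on GRCm38.p6. miR-193b-3p lies at chr16:13449570-13449591 on the plus strand. The mouse microRNA mmu-miR-365-3p, which carries the study's miR-365 name, is annotated with the same letters at chr16:13453895-13453916 and at chr11:79726467-79726488, both on the plus strand.
mmu-miR-193b-3p: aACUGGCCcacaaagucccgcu
mmu-miR-365-3p: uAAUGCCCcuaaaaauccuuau
The seeds differ, so the microRNAs belong to separate seed families. The letters complementary to the miR-193b seed, GGCCAGT, occurred in 0 of the 117 member probes and in 0.294% of all 39429 probes. The letters complementary to the miR-365 seed, GGGCATT, occurred in 1 member probe (0.855%), that of Col7a1, and in 0.312% of all probes. The Col7a1 stretch, from the 60-base probe at chr9:108886861-108886920 (mm9, plus strand), is shown with the match in capitals.
Col7a1: ggggacgGGGCATTaaagctg
A match of letters in a probe is a description and not a shown target site, and whole 3' untranslated regions were not analysed here.

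Of 43020 gene spots per array, between 51.4% and 54.6% (0.2 set) and between 58.9% and 62.1% (0.6 set) exceeded background, with 0 saturated, and RNA integrity was labelled 10 throughout. All 8 keratinocyte markers, Krt5, Krt14 and Trp63 among them, were above background on all 8 arrays. Of the markers of other cell types, 2 of 6 for fibroblasts (Pdgfra and Fbln1), 3 of 6 for leukocytes (Cd68, Cd3e and Csf1r), 1 of 6 for endothelium (Kdr, with Pecam1 on 7 arrays) and 2 of 6 for melanocytes (Mlana and Mitf) were also above background on all 8. The fibroblast markers Dcn and Lum, the leukocyte marker Lyz2, the endothelial markers Cdh5, Tek and Emcn and the melanocyte marker Dct were above background on 0 arrays. A summed level is log2 of the sum of the normalised linear signals of a list's genes on an array, so bright genes weigh most. After miR-365a that of the 6 leukocyte markers was 2.33 to 2.37, beside 0.96 to 1.40 on NC. Csf1r was called higher (1.90 ± 0.31, adjusted p = 0.0133), and Cd68 (0.54 ± 0.18) and Cd3e (0.25 ± 0.18) were not called. The summed level of the 6 melanocyte markers was 0.39 to 0.44 beside 0.77 to 0.97. Mitf was called lower (-0.68 ± 0.14, adjusted p = 0.026), while Mlana (0.31 ± 0.32), Pmel (0.18 ± 0.26) and Tyr (0.00 ± 0.35) were not called. The summed levels of the fibroblast markers (-1.65 to -1.21 beside -1.30 to -0.89) and of the endothelial markers (1.78 to 2.25 beside 1.75 to 2.10) overlapped between the same groups. That of the keratinocyte markers (9.37 to 9.63 beside 9.32 to 9.45) overlapped too, with Krt8 called higher. Pdgfrb was also called higher, but it was above background on the 2 miR-365a arrays only. It was tested only through these arrays, where it is high, so its call is no independent evidence of a rise. After miR-193b the summed level of the keratinocyte markers was 9.52 to 9.55, beside 9.24 to 9.26 on NC, and that of the melanocyte markers 0.97 to 1.16 beside 0.56 to 0.79, without overlap. No gene of these lists passed the limma test there, and the other 3 summed levels overlapped. An unadjusted p under 0.05 was found for 2 keratinocyte and 2 melanocyte markers, beside 3831 of all 17855 genes. The part of these shifts in the results below was not tested.

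Of the 79 members, 45 were tested, because at least 1 group gave a signal well above background on each of its 2 arrays, and 32 of these were above background on all 8 arrays. Another 9 of the tested members were above background only in the 0.6 set, where the level needed was lower. The lowest normalised log2 signal that counted as well above background was -6.69 to -6.20 on the arrays of the 0.6 set and -5.76 to -5.19 on those of the 0.2 set, with median local backgrounds of 26 to 30 and of 55.0 to 60.5 intensity units. Among the 9, Col11a2 (-5.72), Col25a1 (-5.77), Col6a1 (-5.89) and Col4a4 (-5.91) had means on the NC arrays of the 0.6 set that lie below this signal on at least 3 of the 4 arrays of the 0.2 set. Among the 34 members not tested, 24 were above background on no array. Those 24 included the integrin genes Itga1, Itga4, Itga8, Itga9, Itgad, Itgae, Itgax and Itgb8, the laminin alpha chains Lama1, Lama2 and Lama4, and the fibrillar collagens Col3a1, Col5a2 and Col11a1. The integrin genes above background on all 8 arrays included Itga3, Itga6, Itgav, Itgb1, Itgb4 and Itgb5. They also included Itga7, best known from muscle, and Itgal, Itgam, Itgb2 and Itgb7, named for leukocytes. Among the laminins, Lama3, Lama5, Lamb1, Lamb3 and Lamc1 were above background on all 8. The collagens above background on all 8 included Col4a1, Col4a2, Col7a1, Col16a1, Col17a1 and Col18a1, and also Col2a1, Col5a3, Col8a1 and Col12a1. Itga2, the alpha subunit of a collagen receptor of keratinocytes, was above background on 2 arrays only. It read -6.60 and -4.12 on the NC arrays of the 0.6 set and -6.21 and -4.73 on the miR-365a arrays, and was not tested.

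Levels are normalised log2 signals, that is log2 of the processed spot signal after subtracting the 75th percentile for that array, and a difference of 1 is a 2-fold change. After miR-365a, 9 of the 45 tested members passed an adjusted p under 0.05 (20.0%), beside 15.8% of all 17855 genes tested. Of these, 4 rose, Col4a5, Itgb5, Col4a6 and Col8a1 (7.81% of all genes rose), and 5 fell, Lamc1, Lama5, Itga6, Itga7 and Col16a1 (8.04% of all genes fell). The count was 4 without NC replicate 1 of the 0.6 set and 3 without miR-365a replicate 2, and 5 to 13 in the other settings tried. After miR-193b, 1 of 45 passed (2.22%), beside 2.92% of all genes, and this was a rise of Col8a1 (1.75% of all genes rose). In RNA of whole cultures, fewer cells with a transcript and less of it per cell cannot be told apart. The share of members called was near that of all genes in both comparisons. The median log2 difference of the tested members was -0.16 after miR-365a and -0.01 after miR-193b, where all genes gave 0.02 and 0.05. Groups did not overlap in 24 of 45 members after miR-365a and in 20 of 45 after miR-193b, against 61.6% and 52.5% of all genes.

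**Figure D1:**
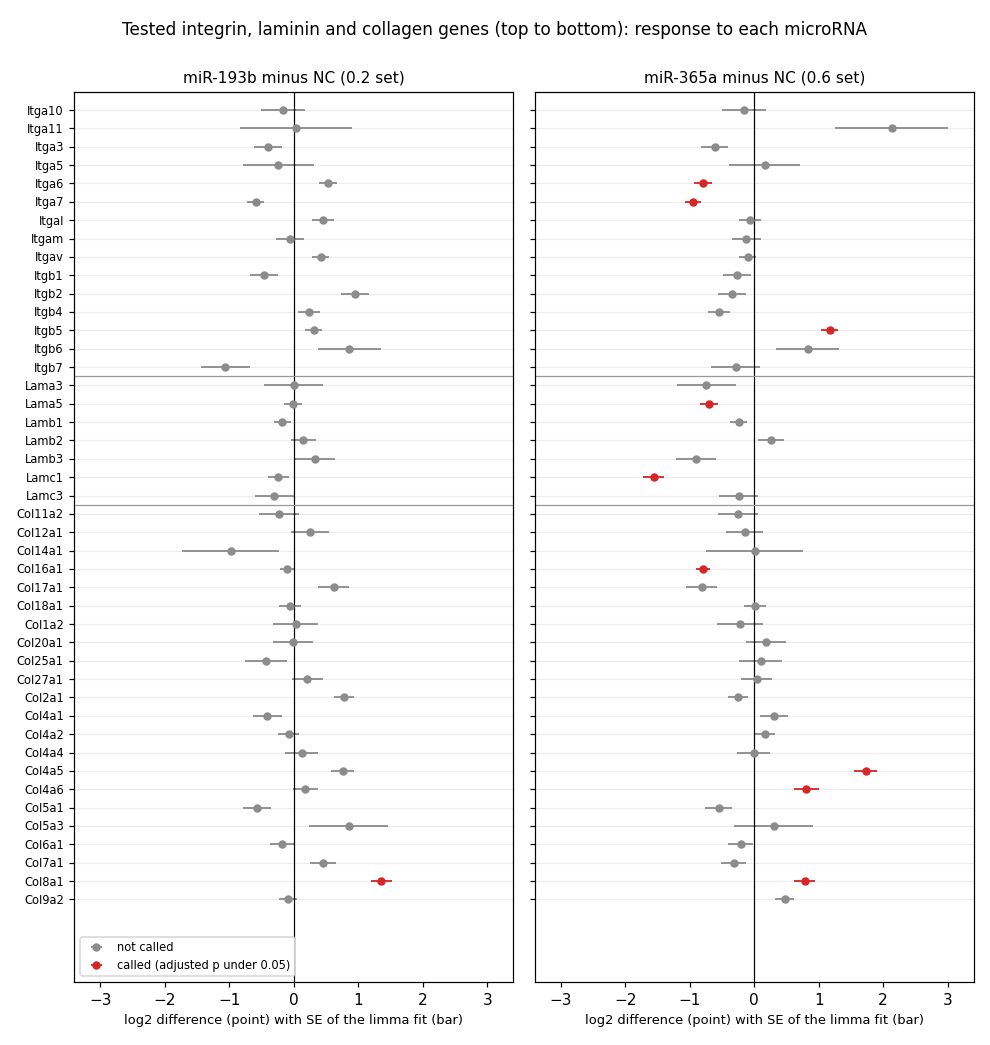
Log2 difference of 44 tested members, miR-193b minus NC of the 0.2 set (left) and miR-365a minus NC of the 0.6 set (right). Points are differences of group means of 2 arrays each, bars the standard error of the limma fit, and red points passed an adjusted p under 0.05. Grey lines part integrins, laminins and collagens from top to bottom. On the right, 9 members are red and lie between -1.56 (Lamc1) and 1.73 (Col4a5). On the left only Col8a1 is red, at 1.36.

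The laminin chains carried the largest fall among the members. Lamc1, the gamma chain that most basement membrane laminins share, read 1.41 and 1.68 on the NC arrays and 0.00 and -0.02 on the miR-365a arrays (probe at chr1:155066156-155066215, mm9, minus strand). Both miR-365a arrays lay more than 1 unit below both NC arrays, and the 2 miR-365a readings were almost equal. The fall was 2.94-fold (log2 difference -1.56 ± 0.16 SE, n = 2 and 2, limma adjusted p = 0.00461). Lama5, the alpha chain that joins Lamb1 and Lamc1 in the main laminin of adult epithelial basement membranes, read 3.36 and 3.38 on the NC arrays and 2.83 and 2.50 after miR-365a. The groups did not overlap, and the fall of 1.63-fold (-0.70 ± 0.14, adjusted p = 0.0217) passed the test on the probe at chr2:179911079-179911138 (mm9, minus strand). The Lamc1 call held with each array left out, whereas that of Lama5 was lost without NC replicate 1 (adjusted p = 0.0994) or 2 (adjusted p = 0.0826) of the 0.6 set or miR-365a replicate 2 (-0.54, adjusted p = 0.104). Lamb1, the beta chain of the same trimer, read 3.35 and 3.57 against 3.21 and 3.24, and its difference of -0.24 ± 0.13 did not pass (adjusted p = 0.30). Of the 3 chains of this trimer, the alpha and gamma chains thus fell and the beta chain did not pass.

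Lamb3 and Lama3, chains of the epidermal anchoring laminin, gave lower means after miR-365a but no call. Lamb3 read 3.29 and 4.22 on the NC arrays and 2.69 and 3.00 on the miR-365a arrays, without overlap (-0.91 ± 0.31, adjusted p = 0.106). Lama3, on the other hand, overlapped between the groups, with 1.25 and 2.52 on the NC arrays and 0.92 and 1.37 after miR-365a (-0.74 ± 0.46, adjusted p = 0.334). In both genes replicate 2 was above replicate 1 in the NC pair and in the miR-365a pair, and the gap within the NC pair was larger than the difference between the groups. The replicate 1 arrays were neighbours on slide 4, as were the replicate 2 arrays. Lamb3 passed without NC replicate 1 of the 0.6 set (-1.37, adjusted p = 0.0469) and gave -0.44 with no call without NC replicate 2. With neighbouring arrays as a block, an alternative added after the data were seen, Lamb3 passed as well (-0.91, adjusted p = 0.0381). Between neighbours, a split chosen after the values were seen, the miR-365a minus NC differences were -0.60 and -1.21 for Lamb3 and -0.33 and -1.15 for Lama3, and all 4 are below 0.

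**Figure D2:**
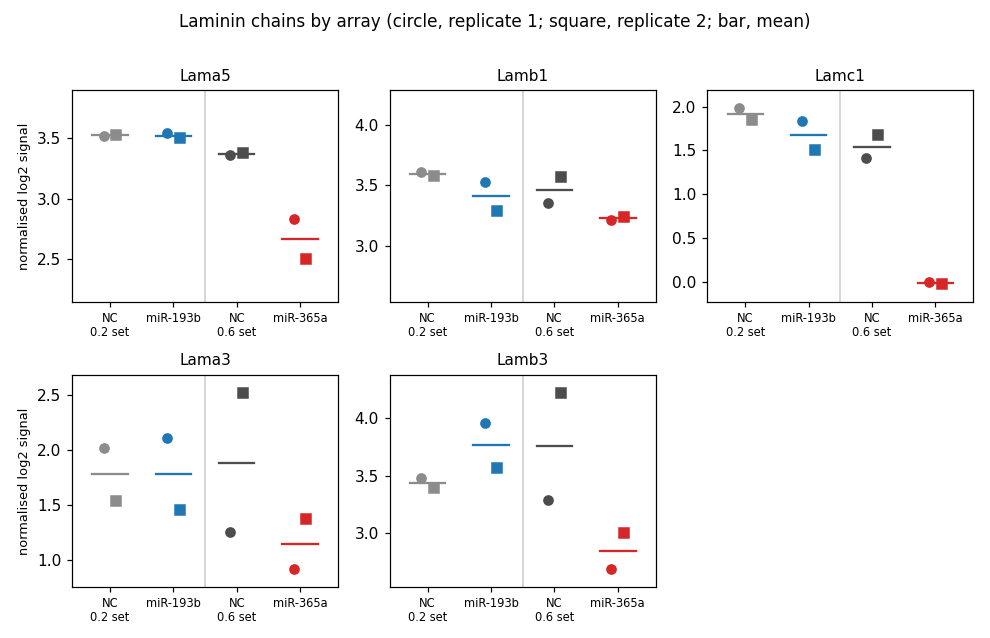
Normalised log2 signal of 5 laminin chains on every array, with a scale of its own for each gene. Circles are replicate 1, squares replicate 2 and bars the mean of 2 arrays, with the 0.2 set to the left of the grey line and the 0.6 set to the right. In the lower row (Lama3, Lamb3) replicate 2 lies above replicate 1 in both groups of the 0.6 set. In the upper row the miR-365a arrays of Lamc1 (0.00 and -0.02) and Lama5 (2.83 and 2.50) lie below all other arrays.

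Of the 8 laminin chains tested, 2 fell, 0 rose and 6 did not pass after miR-365a, so that 25.0% were called beside 15.8% of all genes. Their median difference was -0.53, where all tested genes had 0.02. Lamb2, an alternative beta chain, gave a difference above 0 (0.26 ± 0.20, adjusted p = 0.462) and read -1.89 and -1.63 on the NC arrays and -1.60 and -1.41 after miR-365a. Lamc3, a further gamma chain, read -2.29 and -2.83 against -2.55 and -3.06 (-0.24 ± 0.30, adjusted p = 0.658).

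Among the integrin genes, the receptor subunits moved in both directions after miR-365a. Itgb5, the beta subunit that pairs with the Itgav product to bind vitronectin, rose 2.25-fold. It read 1.92 and 2.10 on the NC arrays and 3.18 and 3.19 on the miR-365a arrays (1.17 ± 0.13 SE, n = 2 and 2, adjusted p = 0.00486; probe at chr16:33949123-33949182, mm9, plus strand). The miR-365a arrays lay above every other array of the series for this gene, and the call held with each array left out. Itgav itself, the alpha partner, read -0.74 and -0.48 against -0.76 and -0.66, with overlap and no call (-0.10 ± 0.13, adjusted p = 0.697). Itgb6, a further partner of Itgav found in epithelia under repair, read -4.62 and -3.06 on the NC arrays and -3.36 and -2.67 after miR-365a. Its groups overlapped, and 0.83 ± 0.49 did not pass (adjusted p = 0.315). Without NC replicate 1 of the 0.6 set the Itgb6 difference was 0.05 (adjusted p = 0.954), and without NC replicate 2 it was 1.61 and called (adjusted p = 0.0412).

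Itga7 and Itga6, alpha subunits of laminin receptors, were lower after miR-365a on their brightest probes. Itga7, best known from muscle, read -0.42 and -0.52 on the NC arrays and -1.31 and -1.54 after miR-365a, a fall of 1.94-fold without overlap (-0.95 ± 0.13, adjusted p = 0.00919; chr10:128395274-128395333, mm9, plus strand). Itga6, which pairs with Itgb4 in hemidesmosomes and with Itgb1 elsewhere, read 4.84 and 5.08 against 4.20 and 4.13. This is a fall of 1.74-fold without overlap (-0.80 ± 0.14, adjusted p = 0.0171; chr2:71694756-71694815, mm9, plus strand), which a second Itga6 probe, described further on, did not show. The Itga7 call was lost without NC replicate 1 of the 0.6 set (-0.90, adjusted p = 0.0594) or miR-365a replicate 2 (-0.84, adjusted p = 0.061), and that of Itga6 without any one of the 4 arrays of the 0.6 set (-0.92 to -0.68, adjusted p of 0.0518 to 0.097). Itga3, the other laminin-binding alpha subunit of keratinocytes, read 2.79 and 3.03 on the NC arrays and 2.15 and 2.47 after miR-365a. These groups did not overlap either, but the difference of -0.61 ± 0.21 did not pass (adjusted p = 0.102). Itgb4 also had groups apart without a call, with 3.10 and 3.44 against 2.60 and 2.84 (-0.55 ± 0.17, adjusted p = 0.0755).

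The common beta subunit Itgb1 overlapped between the groups, at 1.84 and 2.23 against 1.63 and 1.91 (-0.27 ± 0.22, adjusted p = 0.494). Itga5, the fibronectin receptor's alpha subunit, differed more within each group than between the groups. It read -2.36 on NC replicate 1 and -1.04 on NC replicate 2, and -2.20 and -0.89 on the miR-365a arrays, so that each pair spanned more than 1 unit (0.16 ± 0.55, adjusted p = 0.904). Itga11, a collagen receptor subunit of fibroblasts, had the highest mean difference of all members, 2.13 ± 0.87, from 1 array. It read -6.38 and -6.76 on the NC arrays, -5.93 on miR-365a replicate 1 and -2.96 on replicate 2, and did not pass (adjusted p = 0.156). In total 1 of 15 tested integrin genes rose, 2 fell and 12 did not pass after miR-365a, with a median difference of -0.16, and the 20.0% called stands beside 15.8% of all genes.

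Col4a5, Col4a6 and Col8a1 were the collagen genes that rose after miR-365a. Col4a5 rose the most, 3.32-fold, from -1.88 and -1.81 on the NC arrays to -0.13 and -0.09 after miR-365a (1.73 ± 0.18 SE, n = 2 and 2, adjusted p = 0.00469; chrX:138123547-138123606, mm9, plus strand). Its neighbour Col4a6 rose 1.75-fold, from -2.64 and -2.32 to -1.75 and -1.58 (0.81 ± 0.19, adjusted p = 0.0347; chrX:137599990-137600049, mm9, minus strand). Neither gene's groups overlapped. The products of both genes join in a collagen IV trimer found under the epidermis. Col8a1, a short-chain collagen of vessels and the cornea, rose 1.72-fold, from -0.80 and -0.63 to -0.02 and 0.15 (0.78 ± 0.17, adjusted p = 0.0275; chr16:57624471-57624530, mm9, minus strand). The Col4a5 call held with each array left out. Those of Col4a6 (0.65 to 0.97, adjusted p of 0.06 to 0.167) and Col8a1 (0.70 to 0.87, adjusted p of 0.0704 to 0.143) were lost without any one of the 4 arrays of the 0.6 set, and Col4a6 also without either NC array of the 0.2 set (0.81, adjusted p = 0.0508).

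The ubiquitous collagen IV chains were not called. Col4a1 read 1.93 and 2.19 on the NC arrays and 2.29 and 2.44 after miR-365a, without overlap and without a call (0.31 ± 0.22, adjusted p = 0.421). Col4a2 read 2.04 and 2.33 against 2.25 and 2.44, with overlap (0.16 ± 0.16, adjusted p = 0.576). Whether the rise of Col4a5 differs from the change of Col4a1 was not tested. Col4a3 was not tested and Col4a4, above background on 3 arrays, gave -0.01 ± 0.26.

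Col4a5 and Col4a6 lie head to head, and their promoters are shown because both genes rose. RefSeq's windows on GRCm38.p6, the 250 bases before each annotated start, are chrX:141475169-141475418 on the plus strand for Col4a5 and chrX:141474077-141474326 on the minus strand for Col4a6, with 842 bases between them. Capitals mark matches to the GC box GGGCGG and the CCAAT box, on either strand.
Col4a5: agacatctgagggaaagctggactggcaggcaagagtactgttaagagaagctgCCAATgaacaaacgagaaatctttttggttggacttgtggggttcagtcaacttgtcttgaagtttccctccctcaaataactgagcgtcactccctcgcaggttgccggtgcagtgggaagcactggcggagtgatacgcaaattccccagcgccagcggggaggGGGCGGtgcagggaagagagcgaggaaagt
Col4a6: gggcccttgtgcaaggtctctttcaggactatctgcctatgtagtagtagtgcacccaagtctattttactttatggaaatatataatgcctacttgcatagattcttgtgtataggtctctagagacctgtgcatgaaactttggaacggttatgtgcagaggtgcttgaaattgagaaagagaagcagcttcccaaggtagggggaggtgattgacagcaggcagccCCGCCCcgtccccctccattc
Each window held 1 GC box and that of Col4a5 1 CCAAT box. Of 32851 windows of this length, 32.7% held the GC box and 33.8% the CCAAT box, so neither match sets the pair apart. TATAAA (12.4% of windows), the AP-1 letters TGANTCA (6.75%) and the E-box CACGTG (6.02%), searched on both strands, were in neither window. Promoter windows were found for 57 of the 79 members.

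One collagen gene fell. Col16a1, whose product associates with fibrils and with the dermal side of the basement membrane, read 2.53 and 2.51 on the NC arrays and 1.73 and 1.70 after miR-365a. The fall was 1.74-fold without overlap (-0.80 ± 0.11, adjusted p = 0.00904; chr4:129776333-129776392, mm9, plus strand). The call was lost without NC replicate 1 of the 0.6 set (-0.79, adjusted p = 0.0559) or miR-365a replicate 1 (-0.82, adjusted p = 0.0587) or 2 (-0.79, adjusted p = 0.0633). Col17a1, the hemidesmosomal collagen, read 4.83 and 5.26 against 3.92 and 4.55, without overlap, and its difference of -0.81 ± 0.24 missed the threshold (adjusted p = 0.0703). Col7a1, of the anchoring fibrils and the carrier of the seed letters shown above, read 3.02 and 3.50 against 2.99 and 2.89 (-0.32 ± 0.20, adjusted p = 0.351). Of 22 tested collagen genes, 3 rose, 1 fell and 18 did not pass, which is 18.2% called beside 15.8% of all genes, and their median difference was 0.01.

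**Figure D3:**
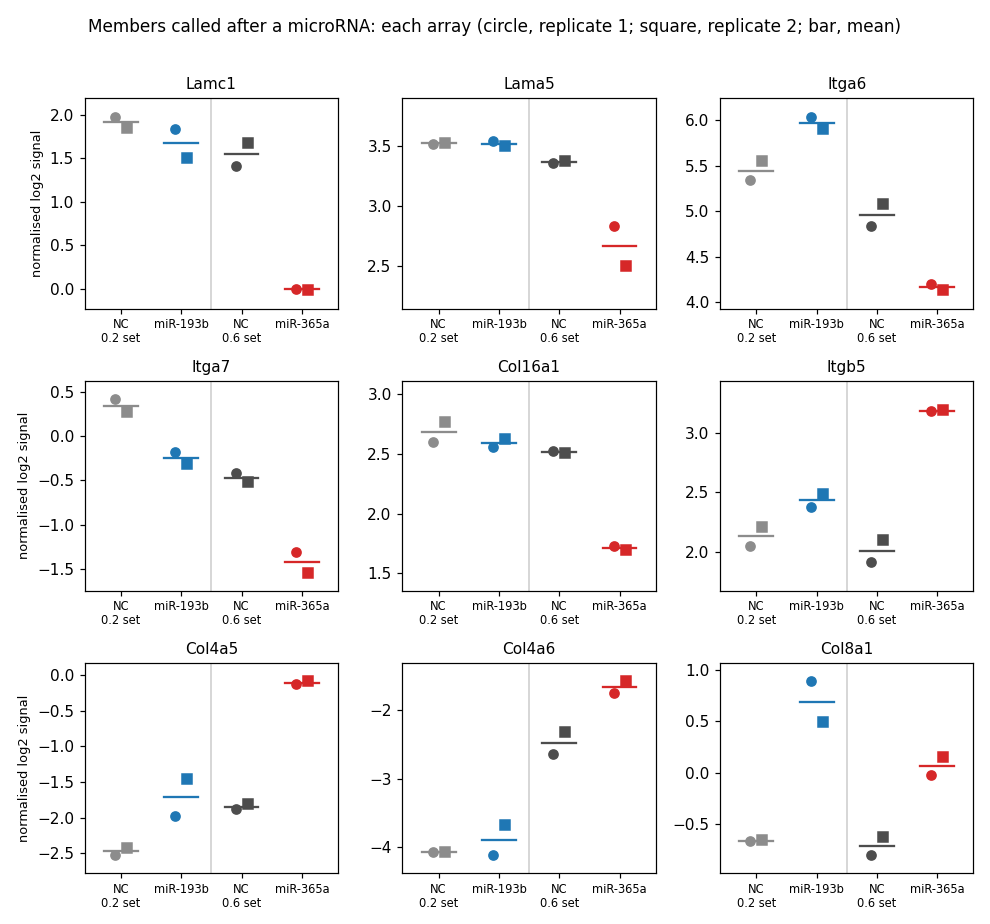
Normalised log2 signal of the 9 members called after a microRNA, on every array, with a scale of its own for each gene. Circles are replicate 1, squares replicate 2 and bars the mean of 2 arrays, with the 0.2 set to the left of the grey line and the 0.6 set to the right. In the 0.6 set the miR-365a arrays lie apart from the NC arrays in all 9 panels. In the 0.2 set the miR-193b arrays of Col8a1 (0.89 and 0.49) lie above the NC arrays (-0.67 and -0.66).

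After miR-193b, Col8a1 was the only member called. It read -0.67 and -0.66 on the NC arrays and 0.89 and 0.49 on the miR-193b arrays, a rise of 2.56-fold without overlap (1.36 ± 0.17 SE, n = 2 and 2, limma adjusted p = 0.0231). The rise was 1.56 within slide 1 and 1.15 between slides 2 and 3. The call was lost without NC replicate 1 of the 0.2 set (1.35, adjusted p = 0.0734), NC replicate 2 of that set (1.36, adjusted p = 0.0542), miR-193b replicate 1 (1.16, adjusted p = 0.0628) or either miR-365a array (1.36, adjusted p = 0.0599), the last of which enter only the estimate of the spread. Col8a1 was thus higher after either microRNA, each against NC arrays of its own, and the difference between the rises, -0.57 ± 0.23, did not pass (adjusted p = 0.242). Of the 22 collagen genes tested, 1 rose and 21 did not pass, with a median of 0.01, beside 2.92% of all genes called.

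None of the 15 integrin genes passed the limma test after miR-193b, and between 0 and 3 were called in the 19 alternative settings. An unadjusted p under 0.05 was found for 7 of them, beside 3831 of all 17855 genes. Itga7 read 0.42 and 0.27 on the NC arrays and -0.18 and -0.31 after miR-193b (-0.59 ± 0.13, adjusted p = 0.0753), without overlap and below NC, as after miR-365a. Itga6 read 5.34 and 5.55 against 6.04 and 5.90 (0.53 ± 0.14, adjusted p = 0.105), above NC. Itgav, at -0.34 and -0.45 against 0.01 and 0.03, was also higher without a call (0.42 ± 0.13, adjusted p = 0.142). The 2 arrays of each group were closer together in these 3 genes than the groups were to each other.

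The other named receptor subunits gave no call after miR-193b either. Itga3 read 2.77 and 2.32 on the NC arrays and 2.27 and 2.02 on the miR-193b arrays (-0.40 ± 0.21, adjusted p = 0.319), and Itga5 -2.30 and -2.78 against -2.80 and -2.75 (-0.24 ± 0.55, adjusted p = 0.83). Itgb1 read 2.50 and 2.22 against 2.12 and 1.68 (-0.46 ± 0.22, adjusted p = 0.294), and Itgb4 2.66 and 2.89 against 3.07 and 2.97 (0.24 ± 0.17, adjusted p = 0.431). Itgb5 read 2.05 and 2.21 against 2.38 and 2.49 (0.31 ± 0.13, adjusted p = 0.23), and Itgb6 -5.11 and -5.02 against -4.22 and -4.20 (0.86 ± 0.49, adjusted p = 0.363). None of these 6 subunits passed. On the brightest probes the groups overlapped only in Itga5, and of all genes 52.5% had groups without overlap after miR-193b. A second Itgb6 probe, above background on 4 arrays, gave -1.48 ± 1.03 with overlap, the opposite direction.

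The laminin genes gave no call after miR-193b in the limma fit, 0 of 8, with 0 at an unadjusted p under 0.05 and 0 called in each of 19 alternative settings. Lama5 gave nearly equal readings, 3.52 and 3.53 on the NC arrays and 3.54 and 3.50 after miR-193b (-0.01 ± 0.14, adjusted p = 0.982). Lamc1 read 1.98 and 1.85 against 1.84 and 1.51 (-0.24 ± 0.16, adjusted p = 0.429), and Lamb1 3.61 and 3.58 against 3.53 and 3.29 (-0.18 ± 0.13, adjusted p = 0.459). Of the chains of the anchoring laminin, Lamb3 gave 0.33 ± 0.31 and Lama3 0.00 ± 0.46. Lamb3 read 3.48 and 3.39 against 3.96 and 3.57, and Lama3 2.02 and 1.54 against 2.11 and 1.45.

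Among the remaining named collagens, Col17a1 read 4.67 and 4.75 on the NC arrays and 5.39 and 5.26 after miR-193b, without overlap (0.62 ± 0.24, adjusted p = 0.212). Col4a5 read -2.52 and -2.42 against -1.97 and -1.46 (0.76 ± 0.18, adjusted p = 0.0796), and Col4a6 -4.07 on both NC arrays against -4.11 and -3.68 (0.18 ± 0.19, adjusted p = 0.606). Col4a5 was above NC on every treated array in either set, and called in the 0.6 set. Col7a1 (0.45 ± 0.20), Col4a1 (-0.41 ± 0.22), Col4a2 (-0.08 ± 0.16) and Col16a1 (-0.10 ± 0.11) had adjusted p of 0.271, 0.336, 0.801 and 0.647.

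Whether a member responded unequally to the microRNAs, each against its own NC arrays, was tested directly as the miR-365a effect minus the miR-193b effect. The test passed for 2 of 45 members (4.44%), beside 3.56% of all genes, both below 0 (2.43% of all genes below and 1.13% above). Itga6 was lower after miR-365a and higher after miR-193b, and the effects differed by -1.33 ± 0.20 (adjusted p = 0.0276). Lamc1 was 2.94-fold lower after miR-365a and 1.18-fold lower after miR-193b, and the effects differed by -1.32 ± 0.23 (adjusted p = 0.0372). These are the laminin receptor subunit and the laminin chain described above. Both calls are lost when single arrays are left out: Lamc1 in each of the 8 leave-outs, with differences from -1.48 to -1.16, and Itga6 in each but that of NC replicate 2 of the 0.2 set, with differences from -1.45 to -1.21. Col17a1 (-1.43 ± 0.34, adjusted p = 0.0785) and Lamb3 (-1.24 ± 0.45, adjusted p = 0.193) had differences of like size that did not pass.

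For 4 of the 13 members with more than one tested probe, one probe was called and another was not after miR-193b, after miR-365a or for the difference of effects. Col18a1 encodes the basement membrane collagen from which endostatin is cut. Its brightest probe (chr10:76515790-76515849, mm9, minus strand) showed no difference, -0.06 ± 0.17 after miR-193b and 0.01 ± 0.17 after miR-365a. Its second probe, at chr10:76514926-76514985, read 3.53 and 3.85 on the NC arrays and 2.83 and 2.61 after miR-193b, and 3.54 and 3.71 on the NC arrays and 2.34 and 2.55 after miR-365a. The second probe was thus lower after either microRNA without overlap, by -0.97 ± 0.17 (adjusted p = 0.0453 over the 23281 probes tested singly, of which 2.37% were called) and by -1.18 ± 0.17 (adjusted p = 0.00933, with 15.8% of these probes called). Both probes were above background on all 8 arrays, so the Col18a1 result depends on which probe is read. The brightest probe read 3.57 and 3.97 on NC and 3.65 and 3.78 on miR-193b arrays, then 3.74 and 3.90 on NC and 3.71 and 3.95 on miR-365a arrays.

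Itga6 also differed by probe. The second probe, at chr2:71690633-71690692 (mm9, plus strand), read 2.81 and 3.29 on the NC arrays and 3.18 and 3.27 after miR-365a, with overlap and a difference of 0.18 ± 0.22 (adjusted p = 0.664). After miR-193b both probes lay above NC, by 0.53 ± 0.14 and by 0.65 ± 0.22 (second probe: 3.48 and 3.09 against 4.07 and 3.79). The fall of Itga6 after miR-365a therefore holds for the brightest probe alone. Col4a6 was called on its brightest probe only, the second probe giving 0.29 ± 0.18 (adjusted p = 0.345) in the same direction. Of the 3 tested Col16a1 probes, 2 were called, at -0.80 and -0.81, and the third, above background on 7 arrays, gave -0.37 ± 0.25.

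**Figure D4:**
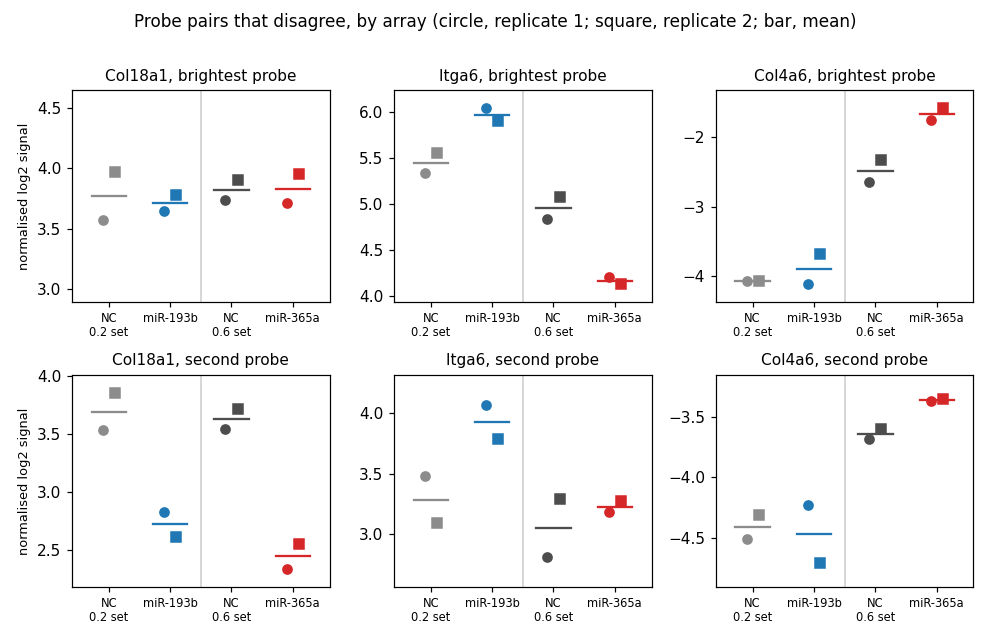
Normalised log2 signal of the brightest probe (top) and the second probe (bottom) of Col18a1, Itga6 and Col4a6 on every array, with a scale of its own for each panel. Circles are replicate 1, squares replicate 2 and bars the mean of 2 arrays. The second Col18a1 probe is lower after miR-193b (2.83 and 2.61) and miR-365a (2.34 and 2.55) than on any NC array, while the brightest probe is not. The second Itga6 probe shows no fall after miR-365a (3.18 and 3.27).

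The proteins that act beside integrins, laminins and collagens were counted in lists chosen with earlier results of these data known. Of 12 other matrix receptors tested, Bcam and Cd44 fell after miR-365a and 10 did not pass, where 8.04% of all genes fell. Bcam, a receptor for the laminin alpha chain of Lama5, read -0.51 and -0.63 on the NC arrays and -2.49 and -2.25 after miR-365a, a fall of 3.48-fold (-1.80 ± 0.14, adjusted p = 0.00311). It also fell after miR-193b, 1.79-fold, from -1.38 and -1.47 to -2.38 and -2.15 (-0.84 ± 0.14, adjusted p = 0.0408). The other 11 did not pass there, and of all genes 2.92% were called and 1.17% fell. Bcam and its ligand chain Lama5 thus both fell after miR-365a, and after miR-193b Bcam fell while Lama5 did not pass.

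Of 18 integrin adaptors and kinases tested, 3 fell and 15 did not pass after miR-365a, where 15.8% of all genes were called and 8.04% fell. Ptk2, encoding focal adhesion kinase, fell 2.54-fold, from 0.39 and 0.71 to -0.89 and -0.69 (-1.34 ± 0.15, adjusted p = 0.00491), and Tln2, encoding a talin, fell 1.80-fold (-0.85 ± 0.16, adjusted p = 0.0191). Parvb, encoding a parvin, was above background only on the NC arrays of the 0.6 set and was at least 2.58-fold lower after miR-365a. It was tested only through those NC arrays, where it is high, so its call is no independent evidence of a fall. Here a lower bound sets the brighter group's mean against the lowest signal that counted as well above background on each array of the other group. Of the other genes in this list, Tln1 (0.23 ± 0.15), Ilk (-0.06 ± 0.19) and Parva (0.25 ± 0.18) were among those that did not pass. After miR-193b, 0 of these 18 passed the limma test, and 4 had an unadjusted p under 0.05, beside 3831 of all 17855 genes.

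Of 17 tested genes of collagen processing, Crtap (0.95 ± 0.14, adjusted p = 0.0108), a subunit of the prolyl 3-hydroxylase complex, and Loxl4 (0.93 ± 0.14, adjusted p = 0.0104), a lysyl oxidase relative, rose after miR-365a. P3h2, a prolyl 3-hydroxylase that acts on collagen IV, fell (-0.97 ± 0.20, adjusted p = 0.0249), and 14 did not pass. Of all genes 15.8% were called after miR-365a, 7.81% higher and 8.04% lower. Of 13 other matrix genes, Spp1, encoding osteopontin, rose (0.86 ± 0.19, adjusted p = 0.0298) and 12 did not pass, among them Nid1 (0.07 ± 0.15) and Hspg2 (-0.31 ± 0.16), which link the laminin and collagen IV networks. After miR-193b, 0 of 17 and 0 of 13 passed the limma test, with 1 and 4 at an unadjusted p under 0.05, beside 3831 of all 17855 genes.

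The NC arrays of the sets differed from each other for many members, which bears on any level read across sets. In the 0.6 set 8 of 45 members were higher and 1, Itga7 (-0.82 ± 0.13, adjusted p = 0.0155), was lower than in the 0.2 set, 20.0% called beside 15.6% of all genes (11.6% higher and 4.04% lower), and the NC pairs did not overlap in 27 of 45 members beside 61.8% of all genes. The count was 3 without NC replicate 1 of the 0.2 set and 3 without NC replicate 2 of the 0.6 set. Col5a1, a chain of fibrillar collagen V, read -5.96 and -6.31 on the NC arrays of the 0.2 set, below background. In the 0.6 set it read -3.04 and -3.27, at least 5.27-fold higher. Col27a1, Col20a1 and Col1a2 were likewise above background in the 0.6 set only, with lower bounds of 1.76-fold, 1.32-fold and 1.21-fold. These genes and Col5a1 are among the 8 called higher. They were tested only through arrays of the 0.6 set, where they are high and the level needed was lower. Their calls are thus no independent evidence of a difference. Some markers of other cell types, but not all, were higher in the same direction. The summed level of the fibroblast markers was -1.30 to -0.89 beside -2.18 to -2.09 in the 0.2 set. That of the endothelial markers was 1.75 to 2.10 beside 0.18 to 0.65, where Kdr alone read 1.72 and 2.08 beside 0.58 and 0.08. Thy1, likewise tested only through the 0.6 set, was at least 5.27-fold higher. Fbln1 was higher by 1.09 ± 0.15 (adjusted p = 0.00932) and Kdr by 1.57 ± 0.25 (adjusted p = 0.0145). Pdgfra (-0.57 ± 0.18), Pdgfrb (0.16 ± 0.33) and Pecam1 (-0.03 ± 0.17) were not called. Dcn, Lum, Cdh5, Tek and Emcn were above background on 0 arrays. The part of these markers in the collagen differences was not tested. Col4a6 (1.59 ± 0.19), Lamb2 (1.24 ± 0.20), Col7a1 (0.99 ± 0.20) and Itgb2 (0.94 ± 0.22) were above background in both sets, with adjusted p of 0.0069, 0.0149, 0.0279 and 0.04. The part of the amount label, the slide and the scan in these differences cannot be told apart.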

How the data were processed

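Spot intensities were written, per the file headers, by Agilent Feature Extraction version 10.7.3.1, which subtracted background and removed spatial trends array by array but did not normalize between arrays. The log2 table deposited by the authors was used as an alternative. The sorted values of its columns were nearly equal, with medians of 7.04 to 7.05, and every column followed the scanner values of its array with a correlation of 0.965 to 0.981 across spots. The submitters' processing notes name limma, and the background correction and centring behind the table are not given in the sources used here.

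From the scanner values, control spots and outlier-flagged spots were dropped, log2 signals were centred on each array's 75th percentile, and spots of a probe were averaged. A probe counted as well above background on an array if a share above 0.5 of its spots did. Probe names came from RefSeq accessions (27508 of 39429 probes), symbols (3544), synonyms (404) or the files (7973). Probe positions are on mm9, and exon and UTR annotation of that build was not used here. One mean per group was fitted with limma 3.58.1 in R 4.3.3 on all 8 arrays (4 residual and 2.3 prior degrees of freedom), with Benjamini-Hochberg adjustment over 17855 genes. Errors are standard errors of this fit. The steps were tested on simulated data. Figures and sequence searches used Python 3.11.15, pandas 2.3.3, numpy 2.4.6 and matplotlib 3.10.9.

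The members and lists were chosen with earlier results of these data known. The members named with values per array, 24 in all, were those called in a comparison, a set list of keratinocyte receptor and matrix genes whatever their values, and those whose probes disagreed. Itga11, Lamb2, Lamc3, Col4a3, Col4a4, the members named between the NC sets and those under other observations were added after their values were seen. One member and one marker gene are part of the fits, counts and sums but are not reported here. The 19 alternatives changed the background correction, normalization, source table, filter, variance model, arrays fitted, slide or neighbour block, and probe choice, or left out 1 array at a time.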

Additional observations from a re-analysis of the deposited data

Results flagged for a closer look

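For 2 members the response to miR-365a differed from that to miR-193b by a direct limma test of the difference, each response against the NC arrays of its own set. For Itga6 the miR-365a effect minus the miR-193b effect was -1.33 ± 0.20 SE (adjusted p = 0.0276), with both miR-365a arrays below both NC arrays and both miR-193b arrays above theirs. On the second Itga6 probe the same difference was -0.47 and was not called. For Lamc1 it was -1.32 ± 0.23 (adjusted p = 0.0372), with all 4 treated arrays below the NC arrays of their set. In the 0.2 set the groups nearly touched, with 1.84 on miR-193b replicate 1 and 1.85 on NC replicate 2. The miR-193b effect on Lamc1 was not called. The calls of both differences were lost when single arrays were left out, as described above. Between the sets, microRNA, amount label and slide cannot be told apart.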

How the results depend on the processing

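Over 908 repeats of 48 values of named members, 816 kept direction and side of the threshold, 53 lost the call, 21 gained one and 18 changed sign. The calls of Lamc1, Itgb5 and Col4a5 after miR-365a held in all 19 alternatives, with values of -1.69 to -1.42, 1.08 to 1.26 and 1.56 to 1.77. Members called after miR-193b numbered 1, and 5 with normexp, 5 when all 8 arrays had to be above background, 4 with neighbouring arrays as a block, 2 with quantile normalization, 2 with the deposited log2 values, 2 with a trended robust variance, 2 with every probe on its own, 0 with no filter on dim probes and 0 with each set fitted alone, where 3138 genes had an unadjusted p under 0.05 and 0 were called. With 1 array left out the count was 0 to 1. After miR-365a it was 9, and 5 with no filter, and 3 to 9 with 1 array left out. For the difference of effects it was 2, and 6 with normexp, 4 with quantile normalization, 4 with the deposited values, 7 when all 8 arrays had to be above background, 5 with a trended robust variance, 5 with the slide as a random block (correlation 0.295), 5 with neighbouring arrays as a block, 1 with the mean over all probes of a gene, 0 with no filter, and 0 to 1 with 1 array left out. Between the NC sets it was 9, and 5 with no filter, and 3 to 11 with 1 array left out. Without the filter 30139 genes were tested, dim ones included; beyond that the cause of these moves was not tested. The neighbour block and the counts between the NC sets were added after the data were seen.

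The signs that changed were all of differences without a call. With the mean over all probes Itgb6 after miR-193b gave -0.31, Lama3 after miR-193b 0.12, Col18a1 after miR-365a -0.59 and Itgav after miR-365a 0.08, and with the slide as a random block Lama3 after miR-193b gave 0.01. With 1 array left out the differences after miR-193b ran from -0.25 to 0.14 for Col18a1, from -0.19 to 0.04 for Col4a2, from -0.04 to 0.39 for Col4a6, from -0.48 to 0.01 for Itga5, from -0.34 to 0.33 for Lama3 and from -0.02 to 0.01 for Lama5. Those after miR-365a ran from -0.11 to 0.13 for Col18a1, from -0.50 to 0.81 for Itga5 and from -0.23 to 0.03 for Itgav. Normexp moved the median difference of effects over all genes by -0.11, and no filter moved it by -0.12, the median after miR-365a by -0.11 and that between the NC sets by -0.21. Of all genes called after miR-193b 60.0% were higher, and 71.3% with normexp; between the NC sets 74.1% were higher, and 63.6% with normexp, 62.7% with quantile normalization and 61.1% with the deposited values.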

Other observations

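Integrin genes named for leukocytes gave signal in this carcinoma line, and their values were looked at after they were seen. Itgal, Itgam, Itgb2 and Itgb7 were above background on all 8 arrays, as were the leukocyte markers Cd68, Cd3e and Csf1r, while Lyz2 was above background on 0 and Ptprc on 2. The brightest Itgam probe read 1.29 and 1.69 on the NC arrays of the 0.2 set and 2.14 and 2.47 in the 0.6 set. The 2 other Itgam probes were above background on 4 and on 3 arrays only, so the gene's probes do not tell the same story about its detection. After miR-193b, Itgb2, the common beta subunit of leukocyte integrins, read -4.38 and -3.73 against -4.93 and -5.08 on NC (0.95 ± 0.22, adjusted p = 0.0788). Itgb7 read 0.19 and -0.76 against 0.95 and 0.60 (-1.06 ± 0.38, adjusted p = 0.182), and Itgal -3.43 and -3.20 against -3.65 and -3.90 (0.46 ± 0.17, adjusted p = 0.187). On the brightest probes the groups did not overlap in any of these 3 genes, as in 52.5% of all genes after miR-193b, and none passed. The other Itgal probes disagreed in direction. The probe above background on all 8 arrays gave 0.63 ± 0.39, and that above background on 5 gave -0.23 ± 0.26 with overlap. After miR-365a the brightest probes of Itgb2, Itgb7 and Itgal gave -0.34 ± 0.22, -0.29 ± 0.38 and -0.07 ± 0.17.

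Some collagen probes gave signal on single arrays. Col4a3 read -2.51 on NC replicate 1 of the 0.2 set and between -8.80 and -7.23 on the other 7 arrays. Col28a1 read -4.52 on miR-365a replicate 1 and -7.34 or lower elsewhere, and Col19a1 -4.73 on miR-365a replicate 2 and -7.16 or lower elsewhere. Each of these rests on 1 array and has no replicate. A Col25a1 probe other than the brightest (chr3:130301638-130301697, mm9) was above background on both miR-193b arrays, at -2.83 and -5.02, and on none of the other 6. It was at least 3.09-fold higher than on the NC arrays and was not called over probes tested singly. The probe was tested only through the miR-193b arrays, where it is high, so this is no independent evidence of a rise. The gene's brightest probe gave -0.43 ± 0.33.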
